A study of Mus musculus with 2 samples.

Results

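The Mir322-Mir503-Mir450 cluster is a run of 7 microRNA genes on the X chromosome, in transcribed order Mir322, Mir503, Mir351, Mir542, Mir450a-2, Mir450a-1 and Mir450b. The members were chosen by gene name, and all 7 were found among the 1973 microRNA genes of each table. GENCODE and RefSeq call Mir450a-1 and Mir450a-2 by the names Mir450-1 and Mir450-2. The samples were 2 small RNA libraries (RNA shorter than 30 nucleotides), biological replicates 1 and 2 of a single group. Each came from forebrain of healthy B6NCrl mouse embryos at 13.5 days, males and females pooled, without any genetic change or treatment named in the labels. The libraries have separate biosample identifiers and 1 donor identifier, so their spread may be partly technical.

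MicroRNAs are cut from hairpin precursors and pair with messenger RNAs mainly through the seed, bases 2 to 8 of the mature strand. The genes of this cluster are made as 1 primary transcript, whose human counterpart is named for MIR424 and MIR503. miR-322 and miR-503 are relatives of miR-15 and miR-16, which repress cyclins and other drivers of the cell cycle, and they are known for arrest of growth during muscle differentiation. miR-351 has the seed of the miR-125 family, which is abundant in the nervous system and acts in differentiation.

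The mature strands below are those that place the members in seed groups, with the seed in capitals. They were taken from RefSeq (GRCm38.p6), where all 7 members had mature strands. The first group shows miR-322-5p and miR-503-5p beside the relatives that were read most in the forebrain. The seed of miR-322-5p was identical to that of miR-15a, miR-15b, miR-16 and miR-195a, and the seed of miR-503-5p was not found in a mature strand of any other gene of the RefSeq table.
miR-322-5p: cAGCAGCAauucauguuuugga
miR-503-5p: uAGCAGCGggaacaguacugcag
miR-15a-5p: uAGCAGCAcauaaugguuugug
miR-15b-5p: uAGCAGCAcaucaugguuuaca
miR-16-5p: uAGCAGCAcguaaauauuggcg
miR-195a-5p: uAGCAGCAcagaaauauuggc

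The second group is that of miR-351-5p, which shares its seed with both forms of miR-125.
miR-351-5p: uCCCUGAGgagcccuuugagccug
miR-125a-5p: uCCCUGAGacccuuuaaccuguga
miR-125b-5p: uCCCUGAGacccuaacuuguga

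The 3′ members are shown because their resemblance bears on how their reads can be counted. Mir450a-1 and Mir450a-2 give the same 5p strand. The 3p strands of Mir450a-1 and Mir450b agree in their first 18 bases. miR-542-3p shares its seed with no other gene of the table.
miR-542-3p: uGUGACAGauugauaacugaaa
miR-450a-5p: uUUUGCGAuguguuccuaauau
miR-450b-5p: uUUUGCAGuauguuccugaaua
miR-450a-1-3p: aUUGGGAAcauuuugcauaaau
miR-450a-2-3p: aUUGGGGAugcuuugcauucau
miR-450b-3p: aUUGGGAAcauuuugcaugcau

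All 7 hairpins lie on the minus strand of chromosome X within 6353 bases (GRCm38, also called mm10). Mir322, the most 5′ gene, spans chrX:53054255-53054349, and Mir503 follows after 200 bases at chrX:53053984-53054054. Mir351 lies at chrX:53053255-53053353. A gap of 3767 bases, in which GENCODE M21 annotates the long noncoding RNA Gm28730 (53051194 to 53053159, same strand), separates it from Mir542 at chrX:53049403-53049487. Mir450a-2 (chrX:53048299-53048367), Mir450a-1 (chrX:53048154-53048244) and Mir450b (chrX:53047997-53048078) form a tight group with gaps of 54 and 75 bases. In that annotation no other transcript of the same strand covers a member or overlaps it with an exon, so each is listed outside other genes. The noncoding transcript C430049B03Rik (53055046 to 53057190) lies upstream on the same strand.

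Replicate 1 held 4117752 reads counted on microRNA genes and replicate 2 held 3908953. Levels are given in CPM, counts relative to 1000000 of these gene counts, as mean ± SD of the 2 libraries (n = 2). Genes that reached 10 counts in both libraries were called detected. By this rule 6 of the 7 members were detected, against 19.1% of all genes in the tables (377 of 1973). Mir450a-2 was the exception. No member had a read on the opposite strand in either library, as was also the case for 337 of the 377 detected genes. Together the cluster held 66730 counts in replicate 1 and 68588 in replicate 2. The share of the cluster among gene counts was 1.69% ± 0.0948. It was 1.62% for replicate 1, with a 95% Wilson interval of 1.61 to 1.63, and 1.75% for replicate 2, with an interval of 1.74 to 1.77. Intervals cover counting error only. With all reads of the library as denominator, multi-mapped and unmapped ones included, the share was 0.642%.

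Mir322 carried most of the reads of the cluster. It had 58128 counts (14116 CPM) in replicate 1 and 60793 (15552 CPM) in replicate 2, a mean of 14834 ± 1015 CPM. Both libraries were close, and the gene ranked 17 in the whole table. Its share of the cluster was 87.1% for replicate 1, with a 95% Wilson interval of 86.9 to 87.4, and 88.6% for replicate 2, with an interval of 88.4 to 88.9. The genes next to it in the ranking were Mir181c above (15099 ± 72.9 CPM) and Mir106b below (14610 ± 435 CPM), and neither differed from Mir322 by more than the SD of Mir322. The next ones outward were Mir487b at 16517 ± 3870 CPM, within its own SD of Mir322, and Mir92b at 13430 ± 660 CPM. Mir92b, which is abundant in neural progenitors, was lower than Mir322 by more than either SD. The summed level of the cluster, 16876 ± 948 CPM, was nearest to those of Mir487b and endothelial Mir126a (17435 ± 1970 CPM). With a single group, genes of like pattern across conditions could not be sought.

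Mir503, the gene next to Mir322 and the other member of the miR-15/16 type, was much lower. It had 976 counts (237 CPM) in replicate 1 and 949 (243 CPM) in replicate 2, a mean of 240 ± 4.07 CPM. The libraries hardly differed. Mir322 stood 61.8-fold above this neighbour at a distance of 200 bases.

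Mir351, the miR-125 relative, was the second most abundant member. It had 6007 counts (1459 CPM) in replicate 1 and 5155 (1319 CPM) in replicate 2, a mean of 1389 ± 99.0 CPM. It was 5.79-fold above Mir503, which lies between it and Mir322, and 10.7-fold below Mir322.

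Mir542, whose 3p strand has been studied as a repressor of the survivin gene Birc5, came next in level. It had 1283 counts (312 CPM) in replicate 1 and 1343 (344 CPM) in replicate 2, a mean of 328 ± 22.6 CPM. It stood 1.37-fold above Mir503. The difference of 87.7 CPM exceeded the SD of both genes, and the 2 genes did not overlap between libraries.

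The Mir450 genes at the 3′ end were lowest. Mir450b had 312 counts (75.8 CPM) in replicate 1 and 324 (82.9 CPM) in replicate 2, a mean of 79.3 ± 5.03 CPM. Mir450a-1 had 15 and 16 counts (3.64 and 4.09 CPM), a mean of 3.87 ± 0.318 CPM. Mir450a-2 had 9 and 8 counts (2.19 and 2.05 CPM), a mean of 2.12 ± 0.0983 CPM. The difference between the 2 Mir450a genes exceeded their SDs, but not counting error. In replicate 1 the exact Poisson 95% interval was 2.04 to 6.01 CPM for Mir450a-1 and 0.999 to 4.15 CPM for Mir450a-2, and in replicate 2 the intervals also overlapped (2.34 to 6.65 and 0.884 to 4.03 CPM). All counts of both genes were above the limit of 3 counts that a count of 0 allows.

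The hairpins of Mir450a-1 and Mir450a-2 share an exact stretch of 25 bases that holds the whole 5p strand, and they were the only members with a copy, meaning another microRNA gene that shares at least 20 bases. Mir450a-1 and Mir450b share 19 bases, just under this limit. Reads that fit several places are held in a row of their own in the tables (40.6% of reads in replicate 1 and 43.9% in replicate 2). How many of them came from miR-450a-5p was not tested, so the levels of the 2 Mir450a genes count only reads that could be placed in 1 of them, and the low rank of these genes is uncertain.

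**Figure D1:**
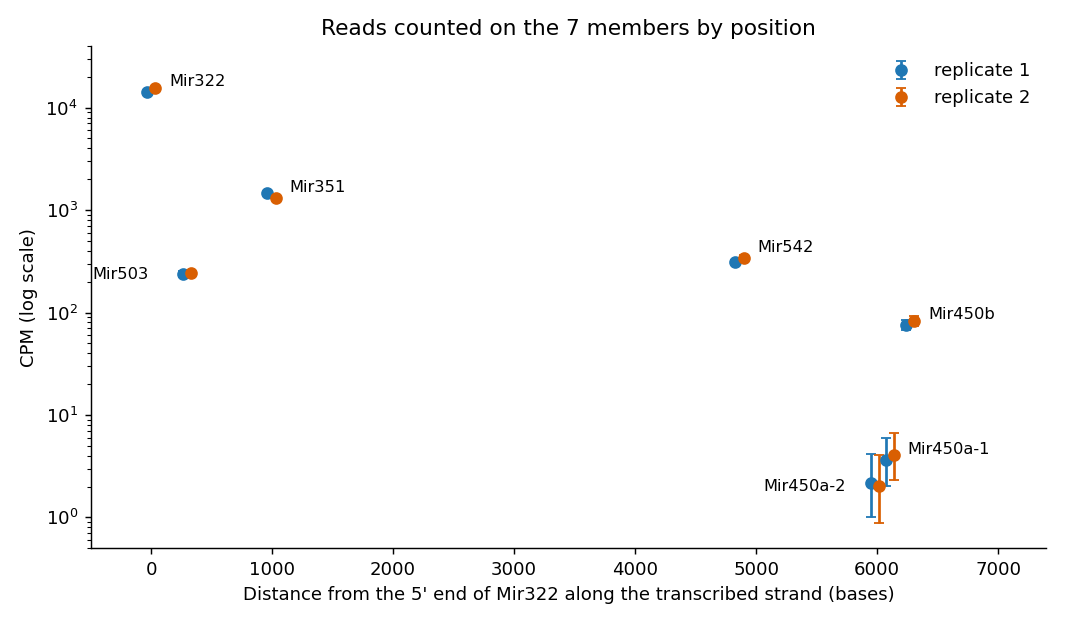
CPM (log axis) of the 7 members in each library against the distance in bases of their 5′ ends from that of Mir322 along the transcribed strand, with exact Poisson 95% intervals. Mir322 lies between 14116 and 15552 CPM, Mir503 beside it at 237 and 243 CPM, and Mir450a-1 and Mir450a-2 at the 3′ end under 5 CPM with overlapping intervals.

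Read in transcribed order, the level was high at Mir322, low at Mir503, higher at Mir351, then lower at Mir542 and at the Mir450a genes, and higher again at Mir450b, 20.5-fold above Mir450a-1. Spearman's rho between order and level was -0.75 over the 7 members, which share libraries and a transcript. From the highest to the lowest detected member, Mir322 to Mir450a-1, the range was 3835-fold. Without the pair that has copies it was 187-fold, from Mir322 to Mir450b. Since each read is a short RNA and not a fragment of the hairpin, CPM were not divided by length. Divided by hairpin length (69 to 99 bases), the order of all 7 was the same and the range 3674-fold. These are reads counted, and the evenness with which different microRNAs were captured was not measured.

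The members also differed in base composition. The hairpins of the 5′ members Mir322, Mir503, Mir351 and Mir542 had 50.5% to 54.9% G and C, and those of the Mir450 genes 30.5% to 36.2%. The predicted folding energy of the whole hairpin was lowest for Mir322 (-42.9 kcal/mol) and Mir450a-1 (-41.0 kcal/mol) and highest for Mir450a-2 (-26.5 kcal/mol). Since the hairpins differ in length, the order changed per base, with Mir503 lowest (-0.530 kcal/mol) and Mir351 highest (-0.377 kcal/mol). Whether composition or folding energy bears on the reads counted was not tested, and the low rank of the Mir450a genes is uncertain, as given above.

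Among genes with the seed of miR-322-5p, Mir322 had the most counted reads. RefSeq lists 11 genes with this seed, and 10 of them were in the tables. After Mir322 came Mir15a with 6308 and 7291 CPM (6799 ± 696), which was 2.18-fold lower, and Mir16-1 at 4354 ± 366 CPM. Mir15b stood at 1862 ± 62.4 CPM, Mir16-2 at 637 ± 31.4 CPM and Mir195a at 338 ± 14.9 CPM. Mir195b, Mir6342, Mir6353 and Mir6419 had 0 counts in both libraries, which allows up to 0.729 CPM in replicate 1 and 0.767 CPM in replicate 2. Mir322 held 51.6% of the reads of these genes for replicate 1, with a 95% Wilson interval of 51.3 to 51.9, and 51.4% for replicate 2, with an interval of 51.1 to 51.6.

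This share depends on reads that the tables do not assign. Mir16-1 and Mir16-2 give the same miR-16-5p and have copies, and without them the share of Mir322 was 62.2% ± 0.0840. Reads that fit both genes are among the multi-mapped ones, and counting them here would lower the share of Mir322. Their number was not tested. Mir497, the relative outside the tables, lies opposite to Mir497b, where 1574 reads in replicate 1 and 1558 in replicate 2 fell on the opposite strand. With those added the share of Mir322 was 50.8% ± 0.127. Counts are per gene and do not separate the 5p from the 3p strand, so none of these shares is that of a mature microRNA.

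By mean CPM, Mir351 was the lowest of the detected genes with its seed. Mir125a had 4027 and 3630 CPM (3829 ± 281), which was 2.76-fold above Mir351. Mir125b-1 stood at 2149 ± 221 CPM. Mir125b-2, at 1429 ± 27.9 CPM, differed from Mir351 by less than the SD of Mir351, and their order changed between the libraries, with Mir351 higher in replicate 1 (1459 against 1410 CPM) and lower in replicate 2 (1319 against 1449 CPM). Mir6367 and Mir6394 had 0 counts in both libraries. Mir351 held 16.4% of the reads of these 6 genes for replicate 1, with a 95% Wilson interval of 16.04 to 16.80, and 15.2% for replicate 2, with an interval of 14.8 to 15.5. Without Mir125b-1 and Mir125b-2, which have copies, its share was 26.6% ± 0.0397. These 2 genes give the same miR-125b-5p, and reads that fit both are among the multi-mapped ones. Counting such reads here would raise the Mir125b genes and lower the share of Mir351. Their number was not tested, so the likeness of Mir351 and Mir125b-2 holds for counted reads only.

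**Figure D2:**
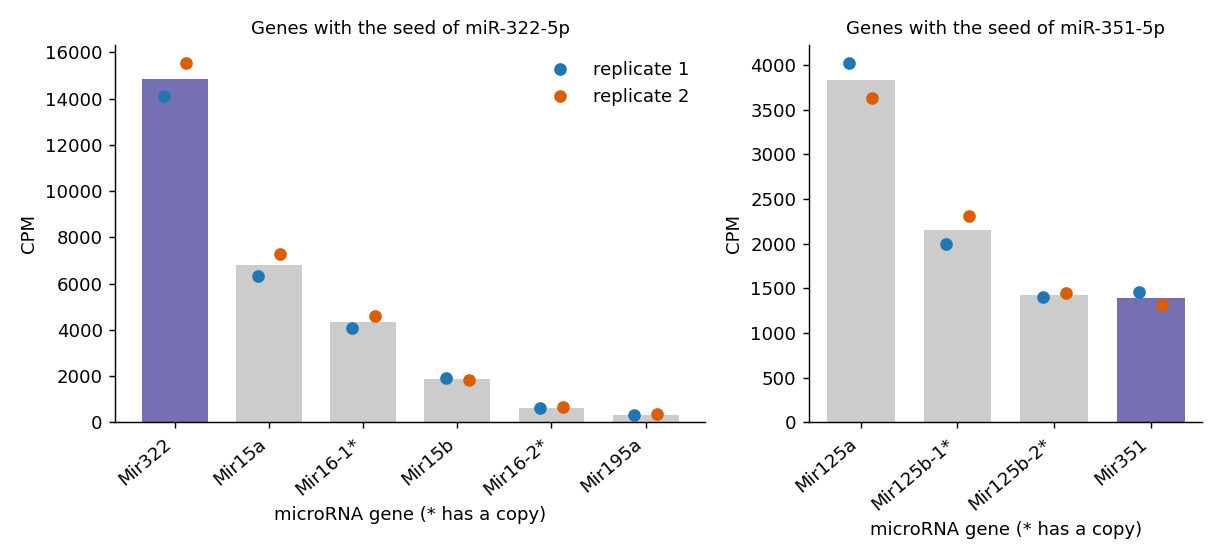
CPM of genes with the seed of miR-322-5p (left) and of miR-351-5p (right), with bars for the mean of 2 libraries, points for each library and an asterisk for genes with a copy. By counted reads, Mir322 stands above its relatives at 14834 CPM, and Mir351 is level with Mir125b-2 and under Mir125a and Mir125b-1. Reads that fit several genes are left out, which can lower the genes with an asterisk. Genes with 0 counts are not drawn.

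On the X chromosome the cluster held 35.8% of all microRNA counts in replicate 1 and 37.7% in replicate 2 (36.7% ± 1.31), over 120 genes of which 39 were detected. Mir322 led these genes. Mir98, a let-7 relative, came next at 5843 ± 775 CPM, 2.54-fold lower, followed by Mir652 at 4180 ± 163 CPM. Of X-linked pairs of genes, only Mir221 and Mir222 were summed. The other X-linked clusters listed for comparison had lower summed levels in both libraries. They were 4593 ± 43.0 CPM for the 5 measured genes of the Mir532 cluster, 3060 ± 377 CPM for the 6 of the Mir106a cluster, a relative of the Mir17 cluster, and 396 ± 49.6 CPM for Mir221 and Mir222.

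Over all chromosomes, measured genes with a position in GENCODE M21 were chained when they lay on 1 strand at most 10 kb apart. This gave 25 clusters of at least 3 genes, of which 15 had at least 3 detected genes. Clusters with genes outside this set can be missing, so the ranks hold only among these 15. By summed CPM the cluster was the fourth of these, after those led by Mir17 (81604 ± 3431 CPM), Mir487b (51784 ± 7773 CPM) and Mir93 (38769 ± 1523 CPM). The next was the chromosome 12 group led by Mir127 (14615 ± 2011 CPM), with 16037 CPM in replicate 1 and 13193 in replicate 2, below the Mir322 cluster in both. In the share held by its leading gene, 87.9%, the cluster came after 2 others, those led by Mir449a (99.7%) and Mir23a (96.8%), and the median was 48.5%. Its 3835-fold range was the second widest, after 4548-fold in the Mir487b group, with a median of 118-fold. With genes that have copies left out of every cluster, an alternative chosen after seeing the data, its range was 187-fold, the fourth of the 13 clusters that kept at least 2 detected genes. These ranks are descriptions, and no test was made.

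**Figure D3:**
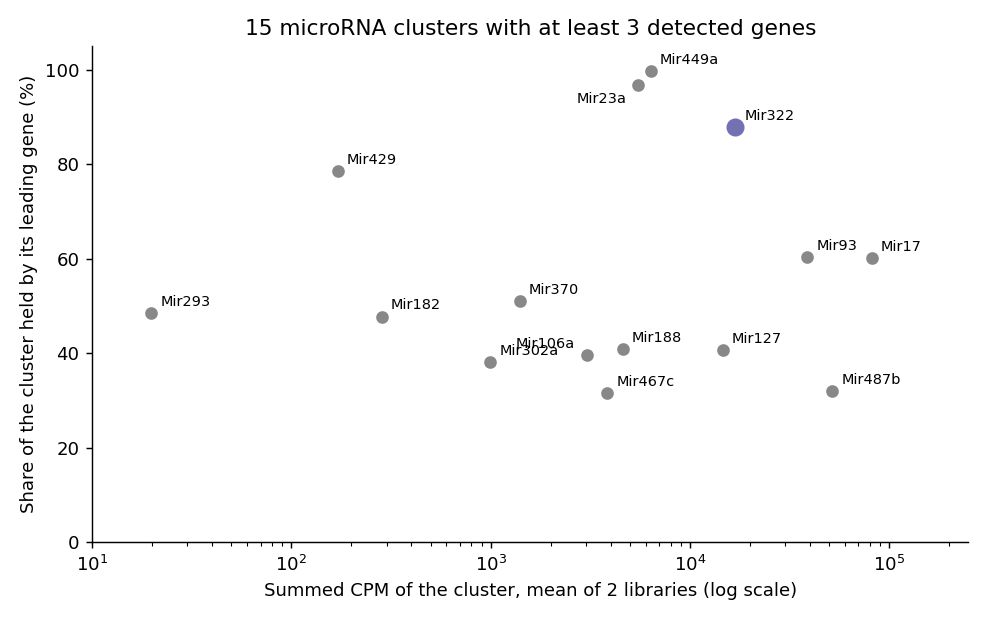
Share of a cluster's reads held by its leading gene (percent) against the summed CPM of the cluster (log axis, mean of 2 libraries), for 15 clusters labelled by their leading gene. The Mir322 cluster, in purple, combines 16876 CPM with 87.9% in 1 gene.

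Between the libraries, 5 of the 6 detected members had a ratio above 0 and 1, Mir351, below 0, while 197 of the 377 detected genes (52.3%) lay above 0. Ratios are log2 of replicate 2 over replicate 1 with TMM library sizes (a scaling that assumes most genes alike), and the two-sided exact binomial test, with Benjamini-Hochberg adjustment over 475 genes, compares the libraries and not conditions. Of the 7 members, 2 were higher in replicate 2 at an adjusted p under 0.05 and 0 were lower. Of all tested genes, 18.1% were higher and 20.8% lower by this rule. With an absolute log2 ratio over 1 required as well, 0 members passed, against 3.37% of genes. Over the 6 detected members the median ratio was 0.24, and over all detected genes 0.03.

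Mir322 had a log2 ratio of 0.25 (exact 95% interval 0.23 to 0.26, exact binomial adjusted p = 4.31e-192), and Mir542 a ratio of 0.25 (0.14 to 0.36, exact binomial adjusted p = 4.43e-05). Mir450b stood at 0.24 (0.01 to 0.47) and Mir503 at 0.14 (0.01 to 0.27), and neither passed after adjustment (exact binomial adjusted p = 0.0912 and 0.0728). Mir450a-1, at 0.27, and Mir450a-2, at 0.02, had intervals of over 1 unit on either side. The detected genes at large ranged from -0.72 to 0.51 between their 5th and 95th percentiles, and all 7 members lay inside. The binomial test covers counting error only. An edgeR exact test with the dispersion estimated from these libraries passed 0 of the 7 members (0 at an unadjusted p under 0.05) and 1 of 475 genes. That dispersion was itself taken from the spread between the 2 libraries compared, so this test cannot decide whether a member differed between them.

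Mir351 had a ratio of -0.04 (exact 95% interval -0.09 to 0.02, exact binomial adjusted p = 0.325). This interval did not overlap that of Mir322, but both cover counting error only, and both ratios lay within the spread of detected genes given above. Free of any scaling, the counts of Mir351 were 10.3% of those of Mir322 in replicate 1 and 8.48% in replicate 2. Its share of the cluster was 9.00% (95% Wilson interval 8.79 to 9.22) in replicate 1 and 7.52% (7.32 to 7.72) in replicate 2, without overlap. On the same measure Mir542 was at 2.21% of Mir322 in both libraries, Mir450b at 0.537% and 0.533%, and Mir503 at 1.68% and 1.56%. Mir450a-1 was at 0.0258% and 0.0263%, and Mir450a-2 at 0.0155% and 0.0132%. With library totals in place of TMM, Mir351 passed as lower in replicate 2, at -0.15 (adjusted p = 4.98e-07 in the exact test), and with DESeq2 size factors likewise, at -0.08 (adjusted p = 0.00763). Mir322 and Mir542 stayed past the threshold as higher. Of all 475 tested genes, 141 were lower and 54 higher with library totals, and 118 lower and 67 higher with DESeq2 size factors. With TMM 99 were lower and 86 higher.

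**Figure D4:**
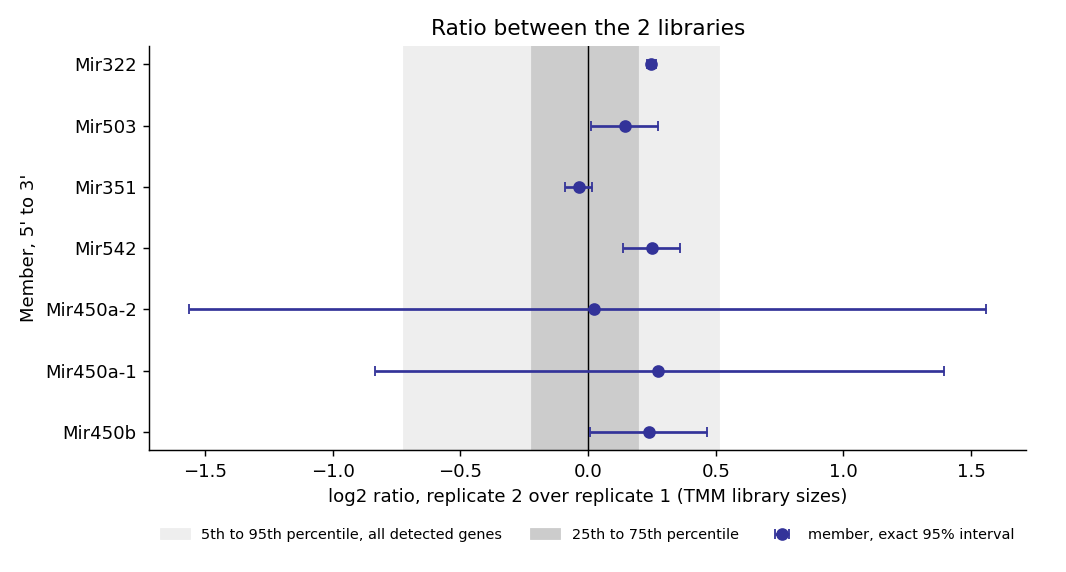
log2 ratio of replicate 2 over replicate 1 of the 7 members with exact 95% intervals, over bands for the 25th to 75th and the 5th to 95th percentile of 377 detected genes. Mir322, Mir542 and Mir450b lie near 0.25, Mir351 at -0.04, and the intervals of the 2 Mir450a genes are wide.

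The labelled tissue was checked against its markers. Of 10 measured neural marker genes, 7 of them with copies, 8 were detected, with a summed level of 27236 CPM in replicate 1 and 23525 in replicate 2. Most of this sum came from Mir92b (13430 ± 660 CPM) and Mir137 (7852 ± 1559 CPM). Mir153 stood at 2027 ± 63.0 CPM. Mir128-1, Mir9-3 and Mir128-2, all with copies, stood at 746 ± 174, 738 ± 22.2 and 575 ± 146 CPM. Genes of miR-124, which have copies, were low, at 20 and 19 counts for Mir124a-2. Of the miR-9 genes, Mir9-2, also with a copy, had 20 and 18 counts, against 3103 and 2823 for Mir9-3. Since miR-322 and miR-503 are studied in muscle, markers of muscle and mesenchyme are given beside the cluster. The striated muscle list summed to 55.6 and 43.7 CPM with 4 of 8 measured genes detected. Mir133b, both Mir133a genes and Mir1a-1, all with copies, were at 0 counts. Mural and mesenchymal genes (6 of 7 detected, mainly Mir143 and Mir140) summed to 6687 and 7148 CPM, and the endothelial gene Mir126a had 16042 and 18828 CPM. The erythroid pair Mir451a and Mir144 summed to 150 and 76.2 CPM. Within this pair Mir451a was lower in replicate 2 (123 and 34.3 CPM) and Mir144 higher (26.5 and 42.0 CPM). Mir155 with Mir223 of leukocytes and microglia summed to 259 CPM in both libraries. The part of these cell types in the reads of the cluster was not tested, and in bulk tissue fewer cells of a type and less RNA per cell cannot be told apart.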

How the data were processed

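Small RNA libraries of 2 biological replicates of 1 group were analysed. The authors deposited 1 table of read counts (whole numbers, by gene) for each library, made on mm10 with GENCODE M4, per the file headers of the read-me texts. Neither aligner nor counting tool is named in the sources used. Own-strand counts were used, without the summary rows. Multi-mapped reads stand in such a row. Replicate 1 held 10631040 reads and replicate 2 10452225. At this depth 1 count is 0.243 and 0.256 CPM.

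Symbols and positions came from GENCODE M21 (same build, 1894 identifiers matched). Ratios used TMM sizes (edgeR 4.0.16, R 4.3.3) and a prior count of 0.5. The two-sided exact binomial test (scipy 1.17.1) ran over all genes whose summed counts reached 10, Benjamini-Hochberg adjusted. It was tested on simulated data that held counting error alone, so its calls under a wider spread between libraries were not examined. DESeq2 1.42.0 gave alternative size factors, and ViennaRNA 2.7.2 the folding energies. All 7 members were named. From the lists of seed relatives, X-linked clusters and cell type markers, leading genes and those that results turned on were named, as were the genes nearest in level. The members and lists were chosen with earlier results of these data known.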

Additional observations from a re-analysis of the deposited data

How the results depend on the processing

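The share of gene counts was 1.65% with reads on either strand and 1.69% without the members that have copies, and 0.642% with all reads as denominator. Leaving out 1 library gave 1.62% to 1.75%. The number of detected members was 6, 7 with at least 1 count in each library and 5 with at least 50, and 6 from either library alone. The range from highest to lowest detected member, 3835-fold, was 7010-fold with a minimum of 1 count, 187-fold with a minimum of 50 or without members that have copies, and 3674-fold when divided by hairpin length, an alternative chosen after seeing the data. Single libraries gave 3800 to 3875. Members past the exact binomial test numbered 2, and 3 with library totals or DESeq2 size factors, where Mir351 was added. The edgeR exact test passed 0, with a dispersion estimated from the same 2 libraries that it compared. In the whole table the genes higher and lower were 86 and 99 with TMM, 67 and 118 with DESeq2 size factors and 54 and 141 with library totals. Library totals moved every log2 ratio by -0.11, so that of Mir450a-2, 0.02 with TMM, was -0.085 with library totals and -0.023 with DESeq2 size factors. No other member's ratio changed direction. No paired analysis was possible because there is only 1 group. The 2 Mir450a genes had 8 to 16 counts, so their intervals are wide. Whether their copies lowered these counts was not tested.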
